A study of Mus musculus with 34 samples.

Results

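Dual-specificity MAP kinase phosphatases remove phosphate from both the threonine and the tyrosine of the activation loop of MAP kinases and so switch these kinases off. Most of them are products of early response genes, and each takes its own selection of ERK, JNK and p38 kinases in the nucleus or the cytoplasm. Dusp1 is a classic target gene of the glucocorticoid receptor (GR, gene Nr3c1), and its induction is one of the routes by which glucocorticoids dampen MAP kinase signalling. The members were taken by gene name: Dusp1, Dusp2, Dusp4, Dusp5, Dusp6, Dusp7, Dusp8, Dusp10, Dusp14 and Dusp16, 10 of the 55341 genes counted in each of 34 RNA-seq libraries. The question was how the glucocorticoid-induced Dusp1 moved beside the repressed Dusp4 and Dusp10 in each receptor line.

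The cells derive from the mouse mammary adenocarcinoma line 3617. Their own GR was knocked out, and they stably express GFP-tagged mouse GR in 1 of 5 forms: Y551A-Dim, Y551A, D647V-Tetra, D647V or WT. They were treated for 2 h with 100 nM dexamethasone (Dex), a synthetic glucocorticoid, or with its ethanol vehicle (EtOH). Every group carries the GR knockout and was kept in 10% serum and 5 ug/ml tetracycline. The labels do not spell out what Dim and Tetra stand for, and they name a single line per receptor form, so a receptor form and its line cannot be told apart. Library set 1 holds Y551A-Dim, Y551A and WT with 3 libraries per line and treatment. Library set 2 holds D647V-Tetra and D647V with 3 libraries per treatment and a WT of its own with 2. Each of the 16 files of set 2 is marked "resent" in its header, unlike those of set 1, and each mutant line was compared only with the WT of its own set. Separate cultures are not stated for the replicates, so the p-values may measure technical spread alone.

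Libraries held 44998213 to 70124595 counted reads in set 1 and 60277930 to 79776573 in set 2. Nr3c1, the gene of the receptor, whose counts can include the tagged copy, was at 234.4 to 380.04 CPM (counts scaled to the size of the library) in all 34 libraries. Against WT in EtOH, its log2 level was 0.15 ± 0.031 in Y551A-Dim, 0.30 ± 0.031 in Y551A, -0.37 ± 0.045 in D647V-Tetra and -0.24 ± 0.045 in D647V (SE), all past the threshold. With Dex it moved by 0.20 ± 0.031 in Y551A-Dim, 0.13 ± 0.031 in Y551A and -0.13 ± 0.041 in D647V-Tetra, and was not called in D647V or either WT. Of 8 luminal epithelial markers, 7 were below 1 CPM in every library, with the defining Epcam and Cldn3 at 0. The exception was Esr1, at 2.99 to 5.34 CPM. Of 7 basal or myoepithelial markers 5 were below 1 CPM in every library, while Krt14 stood at 2.46 to 19.7 CPM. Of 7 fibroblast markers 3 were below 1 CPM in every library, while Col1a2 stood at 1630 to 2740 CPM. The rest of that list was far lower than Col1a2, with Col1a1 at 0.927 to 2.44 CPM, Col3a1 at 6.77 to 14.0 and Pdgfra at 22.2 to 39.3. Markers of immune cells were below 1 CPM in every library for 5 of 6 genes, the exception being Lyz2 at 3.56 to 6.61 CPM. Of 4 endothelial markers 3 were below 1 CPM in every library, with Cdh5 at 1.96 to 9.27 CPM. All 4 adipocyte markers were below 1 CPM in every library. In bulk RNA, fewer cells expressing a gene and less RNA per cell cannot be told apart, which holds for every level below.

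Per length of transcript, Dusp4, a nuclear phosphatase of ERK and JNK, was the most abundant member in EtOH in every line, at 23.0 ± 1.35 RPKM in Y551A-Dim, 35.6 ± 1.17 in Y551A and 24.4 ± 1.24 in WT of set 1 (CPM per kilobase of transcript, SD, n = 3 each). It stood at 24.7 ± 1.41 RPKM in D647V-Tetra, 27.5 ± 0.956 in D647V (n = 3 each) and 38.6 ± 0.948 in WT of set 2 (n = 2). Dusp14, a small phosphatase that lacks the kinase-docking domain of the others, came second throughout, at 16.3 ± 0.327 RPKM in WT of set 1. Dusp7, Dusp10 and Dusp16 followed at 10.4 ± 0.503, 9.79 ± 0.227 and 7.91 ± 0.350 RPKM there, and among these 3, neighbours in rank overlapped in Y551A-Dim, Y551A and D647V-Tetra. Dusp6, Dusp1 and Dusp8 were lower, at 4.34 ± 0.272, 2.60 ± 0.0829 and 2.38 ± 0.0153 RPKM in WT of set 1, and their order changed from line to line, with Dusp1 and Dusp8 overlapping in every line except Y551A-Dim and WT of set 1. Dusp5 was the lowest of the 9 members with more than a trace of reads, at 1.46 ± 0.153 RPKM. Dusp2, a nuclear phosphatase best known from activated lymphocytes, was all but undetected. It had no read in 30 of 34 libraries and 10 counts in all, with 2 in Y551A-Dim EtOH replicate 3, 2 in WT Dex replicate 1 of set 1, 4 in WT Dex replicate 2 of set 2 and 2 in WT EtOH replicate 2 of set 2. A library with no read allows up to 0.0376 to 0.0667 CPM (3 counts of the library, counting error only, each read taken as independent). The 2 reads of a pair were counted separately and are not independent, so these bounds are too low. Dusp2 did not pass the low-count filter, so 9 of 10 members were tested, and the lowest count of any of these in any library was 113, in Dusp5.

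**Figure D1:**
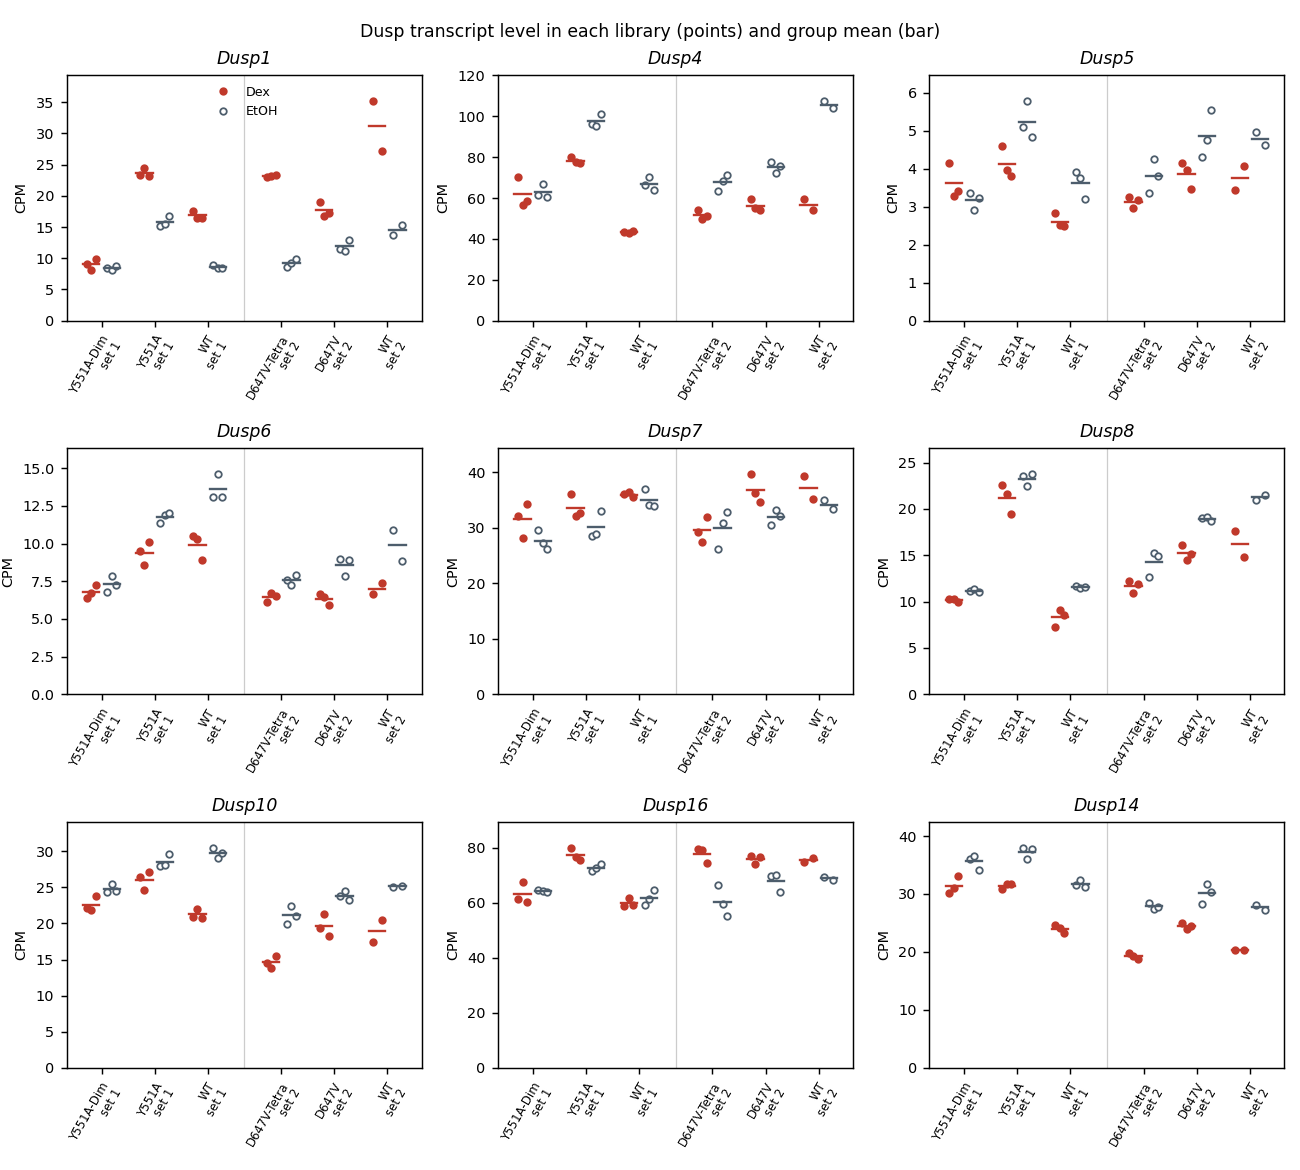
Level of the 9 tested Dusp genes in CPM (vertical axis, linear, from 0) in each library, by receptor line and set. Filled points are Dex libraries, open points EtOH libraries and bars group means. Dusp1 lay between 8.06 and 35.2 CPM and was higher in Dex than in EtOH in every line except Y551A-Dim, where the libraries overlapped.

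Sequence upstream of the start was available from RefSeq (GRCm38.p6) for 9 of the 10 members. No window was available for Dusp4, so nothing below on motifs covers it. The 200 bases from 250 to 51 bases before the RefSeq start are shown for 4 members that span the responses. These are Dusp1, which rose, Dusp8 and Dusp10, which fell, and Dusp5, which had the lowest level of those tested. None of these 4 windows holds a counted exon base of its gene. The gene spans given with the results take in every transcript counted, and those of Dusp1, Dusp8 and Dusp10 reach upstream of the RefSeq start, so that these windows lie inside the span. Capitals mark the cAMP response element TGACGTCA and the E-box CACGTG, both bound by stimulus-responsive factors, and the CArG box, the element of serum response factor; a GC box is left in lower case.
Dusp1 (chr17:26508523-26508722, minus strand): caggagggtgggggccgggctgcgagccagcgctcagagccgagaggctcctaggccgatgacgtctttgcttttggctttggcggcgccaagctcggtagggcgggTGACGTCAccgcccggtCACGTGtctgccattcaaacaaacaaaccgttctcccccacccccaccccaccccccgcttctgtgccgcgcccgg
Dusp8 (chr7:142095335-142095534, minus strand): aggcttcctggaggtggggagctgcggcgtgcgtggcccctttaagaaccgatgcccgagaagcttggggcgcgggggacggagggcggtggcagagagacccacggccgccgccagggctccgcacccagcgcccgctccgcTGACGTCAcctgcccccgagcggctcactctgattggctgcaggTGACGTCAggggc
Dusp5 (chr19:53528895-53529094, plus strand): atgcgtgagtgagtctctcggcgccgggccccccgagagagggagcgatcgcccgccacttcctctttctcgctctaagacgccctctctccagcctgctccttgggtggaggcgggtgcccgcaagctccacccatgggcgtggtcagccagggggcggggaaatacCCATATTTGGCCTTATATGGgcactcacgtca
Dusp10 (chr1:184034131-184034330, plus strand): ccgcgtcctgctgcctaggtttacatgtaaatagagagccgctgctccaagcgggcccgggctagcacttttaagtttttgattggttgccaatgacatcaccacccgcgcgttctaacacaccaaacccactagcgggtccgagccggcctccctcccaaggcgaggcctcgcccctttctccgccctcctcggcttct

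Counting back from the RefSeq start, Dusp1 has TGACGTCA at -143 to -136 and CACGTG at -126 to -121. Dusp8 has TGACGTCA at both -107 to -100 and -63 to -56. This palindrome was in 0.828% of 32851 RefSeq windows of the same length, searched on both strands. Dusp5 has 2 CArG boxes in a row, at -82 to -73 and -72 to -63, a motif present in 1.16% of windows. CACGTG was in 4.34% of windows and also in that of Dusp2. The GC box GGGCGG was in 24.6% of windows and in 6 of the 9 members with a window, Dusp1, Dusp2, Dusp5, Dusp8, Dusp10 and Dusp16. None of the 9 windows held the GR motifs AGAACA (13.2% of windows) or the full GR palindrome (0.332%), the AP-1 motif TGANTCA (5.57%) or TATAAA (9.14%). These are matches of letters in a short window and say nothing of binding.

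In WT, Dex raised Dusp1 in both sets, and 6 other members were called lower in set 1 and 4 in set 2. With 1 library left out, Dusp5 lost its set 1 call in 5 of 6 fits. Of the 4 in set 2, Dusp6 and Dusp10 each lost the call in 3 of 4 such fits. Among the mutant calls counted below, Dusp6 was lost in 5 of 6 fits in both Y551A and D647V, and Dusp8 in 4 of 6 in D647V-Tetra. In D647V, 3 members were called in every such fit. No member passed the test in Y551A-Dim. Dusp4 changed less in every mutant line than in WT of its set, and this difference passed the test in 3 of the 4 lines, all but Y551A. With 1 library left out, the D647V difference lost its call in 7 of 10 fits and the D647V-Tetra difference in 1 of 10. In WT of set 1, 7 of the 9 tested members passed the test (edgeR's quasi-likelihood test, called at a Benjamini-Hochberg adjusted p below 0.05 over all genes, given as "edgeR adjusted p"), 1 up and 6 down, where 3.4% of the 16140 genes tested were called (2% higher, 1.4% lower). In Y551A-Dim 0 of 9 were called by edgeR against 1.09% of all genes (0.898% higher, 0.192% lower), although 3 had an unadjusted p below 0.05 and DESeq2 called 1, Dusp14. In Y551A 4 of 9 were called, 1 up and 3 down, against 1.84% of all genes (1.43% higher, 0.415% lower). In set 2 the counts were 6 of 9 in D647V-Tetra (2 up, 4 down) against 19.2% of 17535 genes (11.3% higher, 7.89% lower), 4 of 9 in D647V (1 up, 3 down) against 0.941% (0.804% higher, 0.137% lower), and 5 of 9 in WT (1 up, 4 down) against 1.72% (1.35% higher, 0.376% lower). The median log2 change of the 9 members was -0.03 in Y551A-Dim, -0.13 in Y551A, -0.46 in WT of set 1, -0.28 in D647V-Tetra, -0.30 in D647V and -0.39 in WT of set 2. Over all genes tested the 6 medians lay between -0.013 and 0.0019.

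**Figure D2:**
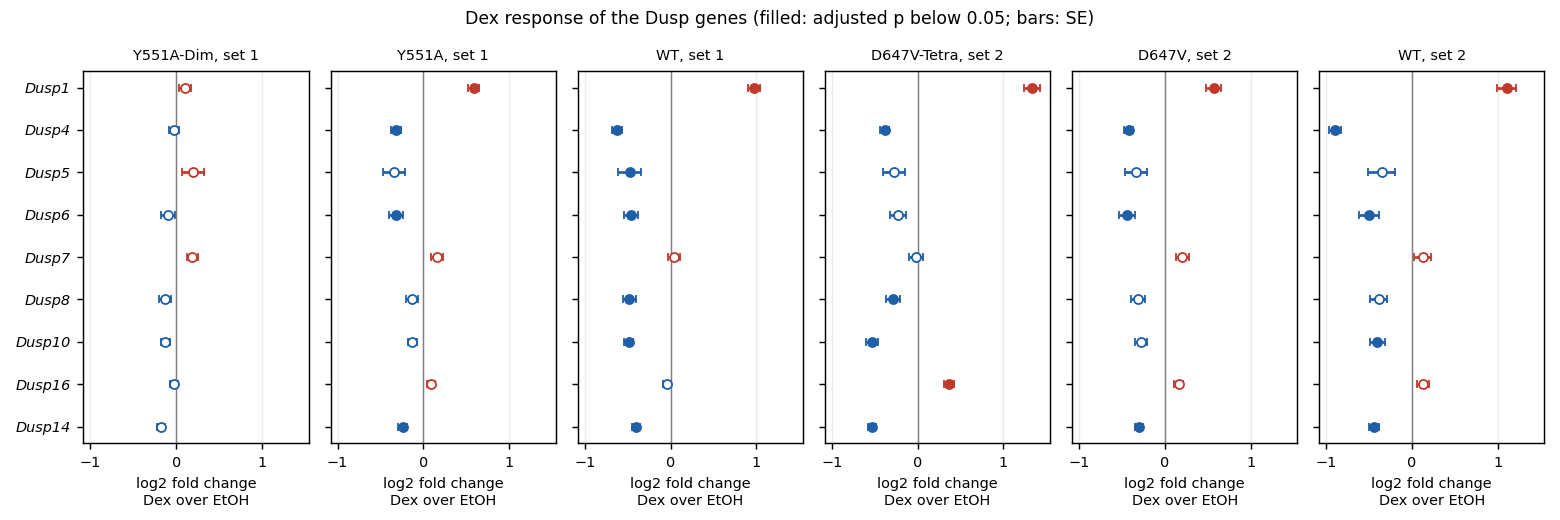
Log2 fold change, Dex over EtOH, of each tested Dusp gene (rows) in the 6 responses (panels, mutant lines left of the WT of their set). Points are edgeR estimates, bars their SE, and filled points have an adjusted p below 0.05. Dusp1 lay right of 0 in all 6 panels and was filled in 5, and Dusp4, Dusp6, Dusp8, Dusp10 and Dusp14 lay left of 0 in all 6.

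Dusp1, a nuclear phosphatase that prefers p38 and JNK, is on chromosome 17 (mm10, 26505590 to 26562128, minus strand), with the palindrome and the E-box shown above upstream of its RefSeq start. In Y551A-Dim it stood at 9.14, 8.06 and 9.91 CPM in Dex, against 8.44, 8.19 and 8.69 CPM in EtOH. In Y551A it stood at 23.3, 24.5 and 23.1 CPM in Dex, against 15.1, 15.4 and 16.7 CPM in EtOH. In WT of set 1 it stood at 17.6, 16.4 and 16.5 CPM in Dex, against 8.93, 8.47 and 8.44 CPM in EtOH. Treated and untreated libraries overlapped in Y551A-Dim and were apart in Y551A and WT. The log2 change was 0.10 ± 0.073 in Y551A-Dim (edgeR adjusted p = 0.678), 0.59 ± 0.066 in Y551A (edgeR adjusted p = 7.96e-07) and 0.97 ± 0.070 in WT (edgeR adjusted p = 7.77e-11; SE, n = 3 per group). In set 2, D647V-Tetra had 23.1, 23.2 and 23.3 CPM in Dex, against 8.52, 9.20 and 9.87 CPM in EtOH. D647V had 19.0, 16.7 and 17.3 CPM in Dex, against 11.5, 11.2 and 13.0 CPM in EtOH. WT had 35.2 and 27.2 CPM in Dex, against 13.7 and 15.3 CPM in EtOH. All 3 lines had every Dex library above every EtOH library, with the 2 WT Dex libraries further from each other than the replicates of any other group. With Dex, Dusp1 thus changed by 1.33 ± 0.093 in D647V-Tetra (edgeR adjusted p = 3.39e-08), 0.57 ± 0.091 in D647V (edgeR adjusted p = 0.00199) and 1.10 ± 0.11 in WT (edgeR adjusted p = 5.53e-06; n = 2 per WT group). Leaving out 1 library at a time kept each of the 5 calls.

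The sizes of the Dusp1 responses were compared directly within each set. Its response in Y551A-Dim was the smallest of set 1, differing from WT by -0.86 ± 0.10 log2 (edgeR adjusted p = 1.96e-06) and from Y551A by -0.48 ± 0.098 (edgeR adjusted p = 0.0115). The difference of Y551A from WT, -0.38 ± 0.097, did not pass (edgeR adjusted p = 0.154). In set 2 the Dusp1 response of D647V-Tetra exceeded that of D647V by 0.76 ± 0.13 (edgeR adjusted p = 0.00847). Neither D647V-Tetra, at 0.23 ± 0.14 (edgeR adjusted p = 0.324), nor D647V, at -0.54 ± 0.14 (edgeR adjusted p = 0.362), was called against WT. A fold change hides the level it starts from: Y551A in EtOH (15.8 ± 0.831 CPM, SD, n = 3) already overlapped WT of set 1 in Dex (16.8 ± 0.679 CPM), and D647V-Tetra in Dex (23.2 ± 0.119 CPM) stayed below WT of set 2 in Dex (31.2 ± 5.68 CPM, n = 2).

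Dusp4 is on chromosome 8 (34807297 to 34819894, plus strand). In Y551A-Dim it stood at 70.3, 56.7 and 58.7 CPM in Dex, against 61.3, 67.1 and 60.3 CPM in EtOH. In Y551A it stood at 79.9, 77.5 and 77.0 CPM in Dex, against 96.3, 95.0 and 101 CPM in EtOH. In WT of set 1 it stood at 43.5, 42.9 and 44.0 CPM in Dex, against 66.3, 70.4 and 63.7 CPM in EtOH. The libraries overlapped in Y551A-Dim, and every Dex library was the lower in Y551A and WT. The log2 change was -0.02 ± 0.059 in Y551A-Dim (edgeR adjusted p = 0.947), -0.32 ± 0.058 in Y551A (edgeR adjusted p = 0.000938) and -0.62 ± 0.060 in WT (edgeR adjusted p = 2.36e-08). In set 2, D647V-Tetra had 54.3, 49.9 and 51.3 CPM in Dex, against 63.5, 68.6 and 71.1 CPM in EtOH. D647V had 59.4, 55.1 and 54.0 CPM in Dex, against 77.5, 72.4 and 75.8 CPM in EtOH. WT had 59.5 and 54.2 CPM in Dex, against 108 and 104 CPM in EtOH. Dex and EtOH libraries were apart in all 3 lines. The lines lay closer together in Dex than in EtOH, where WT was above both mutants. On the log2 scale the change was -0.39 ± 0.056 in D647V-Tetra (edgeR adjusted p = 0.000178), -0.42 ± 0.055 in D647V (edgeR adjusted p = 0.00024) and -0.89 ± 0.068 in WT (edgeR adjusted p = 1.75e-07).

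The response of Dusp4 differed from that of WT by 0.60 ± 0.084 in Y551A-Dim (edgeR adjusted p = 3.7e-05), by 0.51 ± 0.087 in D647V-Tetra (edgeR adjusted p = 0.00516) and by 0.47 ± 0.087 in D647V (edgeR adjusted p = 0.0312). For Y551A it differed by 0.30 ± 0.083, which did not pass (edgeR adjusted p = 0.275). The D647V-Tetra call was lost without WT Dex replicate 2 (0.44, edgeR adjusted p = 0.0533). The D647V call was lost without that library (0.41, edgeR adjusted p = 0.255), without WT EtOH replicate 1 (0.45) or 2 (0.50), without D647V EtOH replicate 2 (0.45) or 3 (0.48), and without D647V Dex replicate 1 (0.43) or 2 (0.49), with edgeR adjusted p from 0.0622 to 0.255. The responses of D647V-Tetra and D647V differed by 0.04 ± 0.078 (edgeR adjusted p = 0.872).

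Dusp5, a nuclear phosphatase selective for ERK (chromosome 19, 53529109 to 53542431, plus strand), was scarce in every group. It stood at 2.82, 2.52 and 2.49 CPM in WT Dex of set 1, against 3.91, 3.76 and 3.19 CPM in WT EtOH, and fell by 0.48 ± 0.13 log2 (edgeR adjusted p = 0.0441). That call was lost without any 1 of the 3 WT Dex libraries or without WT EtOH replicate 1 or 2 (-0.54 to -0.42, edgeR adjusted p from 0.0654 to 0.214). Elsewhere Dusp5 was at 0.19 ± 0.13 in Y551A-Dim (edgeR adjusted p = 0.661), -0.35 ± 0.13 in Y551A (adjusted p = 0.287), -0.28 ± 0.13 in D647V-Tetra (adjusted p = 0.143), -0.34 ± 0.13 in D647V (adjusted p = 0.507) and -0.35 ± 0.16 in WT of set 2 (adjusted p = 0.509).

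The cytoplasmic ERK phosphatases Dusp6 and Dusp7 parted. Dusp6, itself transcribed in response to ERK signalling (chromosome 10, 99263231 to 99267489, plus strand), was lower in Dex in all 6 responses and called in 4. In WT of set 1 it stood at 10.5, 10.3 and 8.91 CPM in Dex, against 13.1, 14.6 and 13.1 CPM in EtOH, and in WT of set 2 at 6.64 and 7.36 CPM in Dex, against 10.9 and 8.87 CPM in EtOH. The groups did not overlap in either set. Its log2 change was -0.10 ± 0.086 in Y551A-Dim (edgeR adjusted p = 0.772), -0.32 ± 0.082 in Y551A (adjusted p = 0.0344) and -0.46 ± 0.081 in WT of set 1 (adjusted p = 0.000409). In set 2 it was -0.23 ± 0.097 in D647V-Tetra (edgeR adjusted p = 0.105), -0.44 ± 0.097 in D647V (adjusted p = 0.0357) and -0.50 ± 0.12 in WT (adjusted p = 0.0384). The Y551A call was lost without Dex replicate 1 or 2 or any 1 of its EtOH libraries (-0.35 to -0.27), the D647V call without any 1 of its Dex libraries or EtOH replicate 1 or 3 (-0.48 to -0.39), and the WT call of set 2 without either Dex library or EtOH replicate 1 (-0.57 to -0.34). Dusp7 (chromosome 9, 106368632 to 106375724, plus strand) was called in none of the 6 responses by edgeR, with 2 changes at an unadjusted p below 0.05 in set 1 and 1 in set 2, and by DESeq2 in none. Its log2 change was 0.19 ± 0.068 in Y551A-Dim (edgeR adjusted p = 0.231), 0.16 ± 0.069 in Y551A, 0.04 ± 0.068 in WT of set 1, -0.02 ± 0.079 in D647V-Tetra, 0.20 ± 0.079 in D647V and 0.12 ± 0.097 in WT of set 2. Without Y551A-Dim Dex replicate 2 the change in that line reached 0.26 (edgeR adjusted p = 0.0397).

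Of the phosphatases that prefer JNK and p38, Dusp8 and Dusp10 were each called lower in WT of set 1 and in D647V-Tetra. Dusp16 was called lower in no line. Dusp10 is on chromosome 1 (184013302 to 184075636, plus strand). In Y551A-Dim it stood at 22.1, 21.9 and 23.8 CPM in Dex, against 24.4, 25.4 and 24.5 CPM in EtOH. In Y551A it stood at 26.4, 24.7 and 27.1 CPM in Dex, against 27.9, 28.1 and 29.6 CPM in EtOH. In WT of set 1 it stood at 21.0, 22.01 and 20.8 CPM in Dex, against 30.5, 29.1 and 29.8 CPM in EtOH. Every Dex library was below every EtOH library in each of these lines, by a wide gap in WT alone of the 3. The log2 change was -0.13 ± 0.052 in Y551A-Dim (edgeR adjusted p = 0.31), -0.13 ± 0.052 in Y551A (adjusted p = 0.371) and -0.49 ± 0.052 in WT (adjusted p = 1.76e-07). In set 2, D647V-Tetra had 14.5, 13.8 and 15.5 CPM in Dex, against 19.9, 22.4 and 21.0 CPM in EtOH. D647V had 19.4, 21.3 and 18.3 CPM in Dex, against 23.9, 24.5 and 23.2 CPM in EtOH. WT had 17.4 and 20.5 CPM in Dex, against 25.0 and 25.2 CPM in EtOH. The groups again did not overlap in any of the 3 lines. The log2 change was -0.53 ± 0.073 in D647V-Tetra (edgeR adjusted p = 0.000105), -0.28 ± 0.071 in D647V (adjusted p = 0.0956) and -0.41 ± 0.088 in WT (adjusted p = 0.0181). The WT call of set 2 was lost without either EtOH library or Dex replicate 1 (-0.41 to -0.29), and DESeq2 called the D647V change (-0.28, adjusted p = 0.0293).

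The Dusp10 response of Y551A-Dim differed from that of WT by 0.36 ± 0.074 (edgeR adjusted p = 0.00595), and that of Y551A by 0.35 ± 0.074 (edgeR adjusted p = 0.0363). The Y551A difference was lost when 1 library was left out in 9 of 12 cases: without WT Dex replicate 1 or 3, any 1 WT EtOH library, Y551A Dex replicate 1 or 3, or Y551A EtOH replicate 1 or 2 (0.33 to 0.37, edgeR adjusted p from 0.0644 to 0.155). In set 2 the differences of response were -0.13 ± 0.11 for D647V-Tetra against WT, 0.13 ± 0.11 for D647V against WT and -0.25 ± 0.10 for D647V-Tetra against D647V, and none was called.

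Dusp8 (chromosome 7, 142079490 to 142095843, minus strand), whose window above carries the same palindrome as that of Dusp1, stood at 7.25, 9.09 and 8.57 CPM in WT Dex of set 1, against 11.6, 11.5 and 11.6 CPM in WT EtOH, and fell by 0.48 ± 0.074 (edgeR adjusted p = 6.22e-05). Its log2 change was -0.13 ± 0.071 in Y551A-Dim (edgeR adjusted p = 0.539), -0.13 ± 0.066 in Y551A (adjusted p = 0.59), -0.29 ± 0.081 in D647V-Tetra (adjusted p = 0.0221), -0.31 ± 0.079 in D647V (adjusted p = 0.0897) and -0.39 ± 0.097 in WT of set 2 (adjusted p = 0.0551). DESeq2 called it in D647V (-0.31, adjusted p = 0.015) and in WT of set 2 (-0.39, adjusted p = 0.00779). The D647V-Tetra call was lost without Dex or EtOH replicate 2 or 3 (-0.30 to -0.24), and the WT change of set 2 was called without Dex replicate 1 (-0.52). Dusp16, the longest transcript of the family here (chromosome 6, 134715468 to 134792625, minus strand), was called in 1 of the 6 responses, that of D647V-Tetra, where it rose. There it stood at 79.6, 79.3 and 74.5 CPM in Dex, against 66.4, 59.7 and 55.2 CPM in EtOH, groups that did not overlap, with a log2 change of 0.37 ± 0.058 (edgeR adjusted p = 0.000393). The same change was -0.03 ± 0.044 in Y551A-Dim, 0.09 ± 0.044 in Y551A, -0.04 ± 0.044 in WT of set 1, 0.16 ± 0.057 in D647V and 0.13 ± 0.070 in WT of set 2, with edgeR adjusted p from 0.443 to 0.9. The difference of the D647V-Tetra response from that of WT (0.24 ± 0.091, edgeR adjusted p = 0.123) or of D647V (0.21 ± 0.081, adjusted p = 0.277) did not pass, so the rise was not shown to be particular to that line.

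Dusp14 (chromosome 11, 84048041 to 84069261, minus strand) was lower in Dex in all 6 responses and called in 5. In Y551A-Dim it stood at 30.2, 31.0 and 33.2 CPM in Dex, against 36.0, 36.6 and 34.2 CPM in EtOH, groups that were apart though the change missed the threshold. D647V-Tetra had 19.8, 19.2 and 18.7 CPM in Dex, against 28.5, 27.4 and 27.8 CPM in EtOH. Its log2 response was -0.18 ± 0.048 in Y551A-Dim (edgeR adjusted p = 0.074), -0.24 ± 0.049 in Y551A (adjusted p = 0.00312) and -0.40 ± 0.050 in WT of set 1 (adjusted p = 1.98e-06). In set 2 it was -0.53 ± 0.050 in D647V-Tetra (edgeR adjusted p = 1.68e-06), -0.30 ± 0.050 in D647V (adjusted p = 0.00282) and -0.44 ± 0.062 in WT (adjusted p = 0.000293). The D647V call was lost without D647V EtOH replicate 2 (-0.25, edgeR adjusted p = 0.0562), and the Y551A-Dim change was called without Dex replicate 3 (-0.21, edgeR adjusted p = 0.0153) and by DESeq2 (-0.17, adjusted p = 0.0438).

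Counting differences of response over all members, 3 of 9 were called for Y551A-Dim against WT (Dusp1 down, Dusp4 and Dusp10 up) beside 1.47% of all genes (0.589% higher, 0.886% lower). For Y551A against WT it was 1 of 9 (Dusp10) beside 0.18% (0.062% higher, 0.118% lower), and for Y551A-Dim against Y551A 1 of 9 (Dusp1) beside 0.558% (0.0991% higher, 0.458% lower). In set 2 it was 1 of 9 for D647V-Tetra against WT (Dusp4) beside 4.41% (3.7% higher, 0.713% lower), 1 of 9 for D647V-Tetra against D647V (Dusp1) beside 0.873% (0.776% higher, 0.0969% lower), and 1 of 9 for D647V against WT (Dusp4) beside 0.188% (0.0057% higher, 0.182% lower). The comparisons of a set share its WT libraries.

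The balance of Dusp1 against Dusp4 and Dusp10 was followed in each library as a log2 ratio of counts, which needs no library scaling. For Dusp1 to Dusp4, Y551A-Dim had -2.94, -2.82 and -2.57 in Dex, against -2.86, -3.03 and -2.80 in EtOH, and the libraries overlapped. Y551A had -1.77, -1.66 and -1.74 in Dex, against -2.67, -2.62 and -2.60 in EtOH. WT of set 1 had -1.30, -1.38 and -1.42 in Dex, against -2.89, -3.06 and -2.92 in EtOH. The ratios of the 3 lines spanned less in EtOH than in Dex, where they ran from low to high in the order Y551A-Dim, Y551A, WT. The mean change was 0.12 in Y551A-Dim, 0.91 in Y551A and 1.59 in WT of set 1. In set 2 it was 1.72 in D647V-Tetra, 0.99 in D647V and 1.99 in WT. For Dusp1 to Dusp10 the mean change was 0.23 in Y551A-Dim, 0.72 in Y551A, 1.45 in WT of set 1, 1.87 in D647V-Tetra, 0.85 in D647V and 1.50 in WT of set 2. Dex and EtOH libraries were apart for both ratios in every line except for Dusp1 to Dusp4 in Y551A-Dim. Exact two-sided permutation tests gave p = 0.5 for that exception. Otherwise they gave the smallest value possible, 0.1 for 3 against 3 libraries and 0.33 for 2 against 2. No line could thus pass 0.05 by this test. Dusp1 was named as induced and Dusp4 and Dusp10 as repressed with earlier results of these data known. A rise of these ratios is therefore no separate support for opposite responses.

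**Figure D3:**
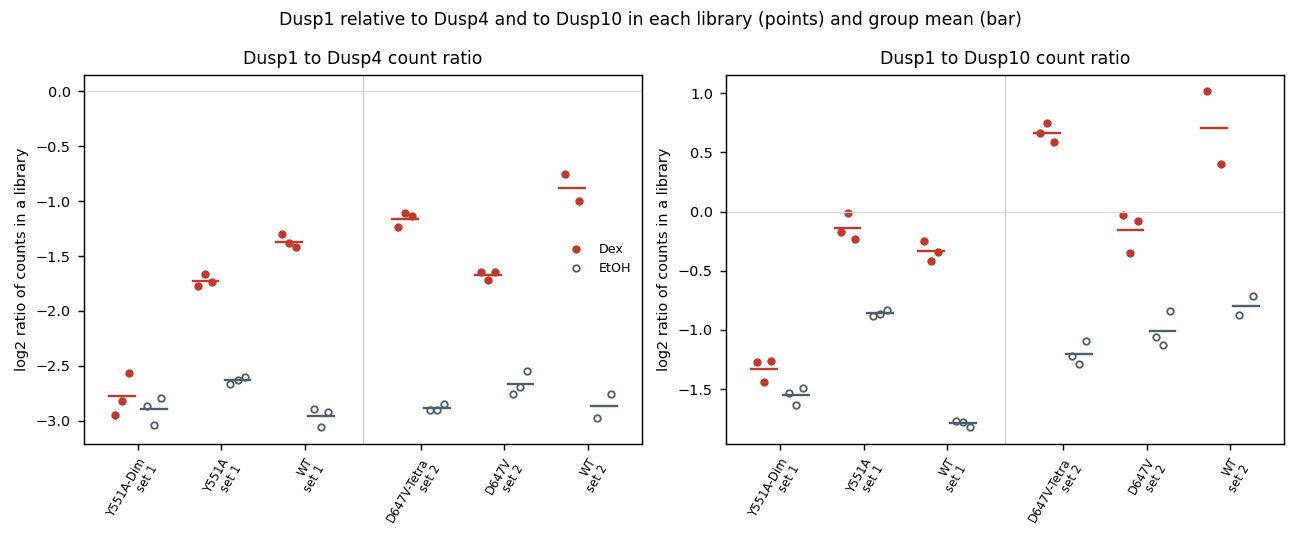
Log2 ratio of Dusp1 to Dusp4 counts (left) and of Dusp1 to Dusp10 counts (right) in each library, with Dex as filled points, EtOH as open points and group means as bars. For Dusp1 to Dusp4 the Dex libraries of Y551A-Dim overlap its EtOH libraries, and those of every other line lie above.

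The lines also differed in EtOH, before Dex. Against WT of set 1, Y551A had 8 of 9 members called, 6 higher and 2 lower, where 42.5% of all genes were called (18.9% higher, 23.5% lower). Dusp8 stood at 23.6, 22.5 and 23.7 CPM in Y551A EtOH, against 11.6, 11.5 and 11.6 CPM in WT EtOH, a log2 difference of 1.01 ± 0.068 (edgeR adjusted p = 4.02e-12). Dusp1 was higher by 0.87 ± 0.070 (edgeR adjusted p = 1.14e-10), Dusp4 by 0.54 ± 0.058, Dusp5 by 0.53 ± 0.12, Dusp16 by 0.24 ± 0.044 and Dusp14 by 0.23 ± 0.048. Dusp1 and Dusp4, which Dex moved in opposite directions, were thus both higher in untreated Y551A cells. Dusp6 (-0.21 ± 0.079, edgeR adjusted p = 0.0339) and Dusp7 (-0.21 ± 0.068, adjusted p = 0.0127) were lower. The Dusp6 call was lost without WT EtOH replicate 2 or any 1 Y551A EtOH library (-0.20 to -0.16) and by DESeq2 (-0.19, adjusted p = 0.0545), and the Dusp7 call without WT EtOH replicate 1 or Y551A EtOH replicate 1 or 2 (-0.17 to -0.15).

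Y551A-Dim had 4 of 9 members called against WT in EtOH, beside 23.3% of all genes (10% higher, 13.3% lower). Dusp6 stood at 6.76, 7.81 and 7.27 CPM in Y551A-Dim EtOH, against 13.1, 14.6 and 13.1 CPM in WT EtOH, a log2 difference of -0.90 ± 0.082 (edgeR adjusted p = 8.4e-09). Dusp7 (-0.34 ± 0.068) and Dusp10 (-0.27 ± 0.051) were also lower and Dusp14 (0.17 ± 0.048) higher, while Dusp1 (-0.03 ± 0.073, edgeR adjusted p = 0.813) and Dusp4 (-0.09 ± 0.058, adjusted p = 0.301) were not called. Against Y551A in EtOH, 7 of 9 were called, all lower in Y551A-Dim, beside 29% of all genes (14.8% higher, 14.2% lower). These were Dusp8 (-1.06 ± 0.068), Dusp1 (-0.90 ± 0.070), Dusp5 (-0.72 ± 0.13), Dusp6 (-0.69 ± 0.083), Dusp4 (-0.63 ± 0.058), Dusp10 (-0.21 ± 0.052) and Dusp16 (-0.18 ± 0.044).

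In set 2 the called members were all lower in the mutant line. D647V-Tetra had 6 of 9 called against WT in EtOH, beside 18.7% of all genes (9.35% higher, 9.34% lower): Dusp1 (-0.66 ± 0.10), Dusp4 (-0.64 ± 0.061), Dusp8 (-0.57 ± 0.088), Dusp6 (-0.38 ± 0.11), Dusp10 (-0.25 ± 0.079) and Dusp16 (-0.19 ± 0.064). The Dusp6 call was lost without WT EtOH replicate 1 (-0.23), the Dusp10 call without either WT library or D647V-Tetra EtOH replicate 1 or 3 (-0.26 to -0.21), and the Dusp16 call without either WT library or D647V-Tetra EtOH replicate 2 or 3 (-0.20 to -0.13) and with DESeq2 size factors (-0.19, edgeR adjusted p = 0.0598). D647V had 1 of 9 called against WT, Dusp4 (-0.49 ± 0.061, edgeR adjusted p = 0.00011), beside 7.36% of all genes (4.58% higher, 2.78% lower). D647V-Tetra against D647V had 2 of 9, Dusp8 (-0.41 ± 0.079, edgeR adjusted p = 0.00831) and Dusp1 (-0.37 ± 0.094, adjusted p = 0.0324), beside 4.53% (0.53% higher, 4% lower). That Dusp1 call was lost without any 1 of the 6 libraries (-0.43 to -0.30, edgeR adjusted p from 0.0518 to 0.156). Nr3c1 was also lower in both set 2 mutants and higher in both set 1 mutants than in WT, and its part in these baselines was not tested.

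**Figure D4:**
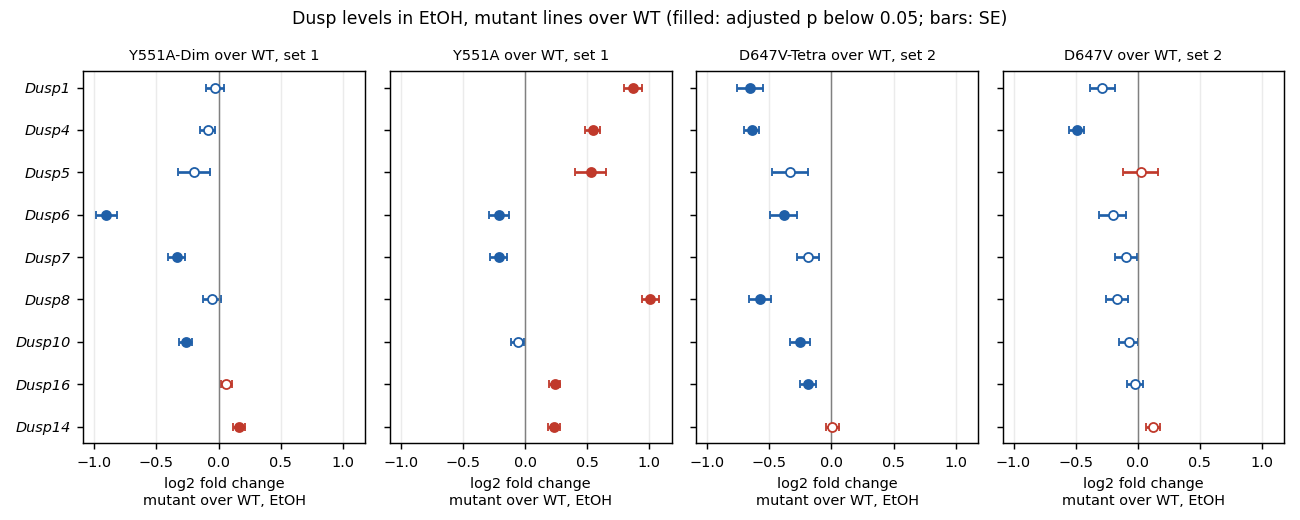
Log2 difference in EtOH, mutant line over the WT of its set, for each tested Dusp gene (rows) in 4 comparisons (panels). Points are edgeR estimates, bars their SE, and filled points have an adjusted p below 0.05. Y551A has 6 filled points right of 0, and D647V-Tetra has 6 filled points left of 0.

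WT was measured in both sets. Fitted over the 10 WT libraries of both sets, 7 of 9 members were called, 1 up and 6 down, beside 5.1% of 16540 genes (2.94% higher, 2.15% lower): Dusp1 (1.04 ± 0.068) up, and Dusp4 (-0.75 ± 0.038), Dusp6 (-0.47 ± 0.072), Dusp10 (-0.44 ± 0.047), Dusp8 (-0.43 ± 0.064), Dusp14 (-0.42 ± 0.039) and Dusp5 (-0.41 ± 0.10) down. Dusp5 was lost without WT Dex replicate 2 or 3 or EtOH replicate 1 or 2 of set 1, or without Dex replicate 1 of set 2 (-0.40 to -0.35). The difference between the WT responses of set 2 and set 1 was called for 0 of 9 members by edgeR and by DESeq2, with 2 at an unadjusted p below 0.05, beside 0.0181% of all genes. The larger of these was Dusp4, at -0.29 ± 0.075 (edgeR adjusted p = 0.431).

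Outside the family, 80 genes of the MAP kinase pathway lists were tested in set 1, and those called were 0 in Y551A-Dim (beside 1.09% of all genes), 4 in Y551A (5%, beside 1.84%) and 8 in WT (10%, beside 3.4%). Of 79 tested in set 2, 18 were called in D647V-Tetra (22.8%, beside 19.2%), 3 in D647V (3.8%, beside 0.941%) and 5 in WT (6.33%, beside 1.72%). Their values are log2 changes ± SE. In Y551A-Dim edgeR called 0 genes of any of the 8 lists below, with 0 to 2 per list at an unadjusted p below 0.05 and a single DESeq2 call. Of 12 other dual-specificity phosphatases tested in set 1 and 11 in set 2, edgeR calls came from D647V-Tetra alone (DESeq2 called 1 gene in WT of set 2 too), where the pseudophosphatase gene Styx rose (0.28 ± 0.076), Dusp9, a cytoplasmic ERK phosphatase, fell (-0.23 ± 0.051), and Dusp11, named after its value was seen, rose (0.18 ± 0.044). In WT of set 1 the 3 with the lowest p were Dusp3 (-0.05 ± 0.033), Dusp9 (-0.08 ± 0.054) and Styx (0.10 ± 0.072), and neither edgeR nor DESeq2 called any, nor was any at an unadjusted p below 0.05. Of 12 MAP kinases tested in set 1 and 11 in set 2, Mapk14, which encodes p38 alpha, rose by 0.22 ± 0.035 in Y551A, 0.24 ± 0.035 in WT of set 1 and 0.22 ± 0.047 in WT of set 2. No other MAP kinase gene was called by edgeR, with Mapk6 at -0.09 ± 0.037 in WT of set 1. Of 7 MAP kinase kinases, the single edgeR call was Map2k1 in D647V-Tetra (-0.16 ± 0.050, named after its value was seen), with Map2k6 at -0.18 ± 0.084, Map2k3 at -0.07 ± 0.043 and Map2k2 at -0.07 ± 0.042 in WT of set 1. Phosphatases of MAP kinases from other families, 7 tested in set 1 and 8 in set 2, had 0 edgeR calls in all 6 responses, with 0 to 2 at an unadjusted p below 0.05 and 0 or 1 DESeq2 call in each. There Ppm1d was at -0.09 ± 0.059, Ptprr at 0.60 ± 0.66 and Ppm1a at 0.03 ± 0.035 in WT of set 1.

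Among 22 RAS, RAF and MAP3 kinase genes, WT of set 1 had 1 that rose and 2 that fell. Map3k14, a kinase of NF-kB signalling, fell by 0.47 ± 0.063, the RAF scaffold Ksr1 fell by 0.31 ± 0.060 and Hras rose by 0.21 ± 0.040. Hras changed by 1.00 ± 0.059 in D647V-Tetra, where 7 genes of the list rose beside 11.3% of all genes, by 0.41 ± 0.059 in D647V and by 0.48 ± 0.072 in WT of set 2. The 3617 cells carry an integrated viral promoter array ahead of a ras gene, so counts of Hras are uncertain. Downstream of MAP kinases, Mknk2, a kinase of the translation factor eIF4E, was called higher in 5 of 6 responses. It rose by 0.28 ± 0.045 in Y551A, 0.35 ± 0.044 in WT of set 1, 0.94 ± 0.061 in D647V-Tetra, 0.27 ± 0.060 in D647V and 0.41 ± 0.074 in WT of set 2. It was the single call among 10 such kinases in each of these except D647V-Tetra, where Rps6ka4 fell (-0.24 ± 0.068) and, named after their values were seen, Rps6ka3 rose (0.38 ± 0.093) and Mapkapk2 fell (-0.12 ± 0.040). Rps6ka4 (-0.14 ± 0.055) and Mapkapk5 (0.45 ± 0.26) did not pass in WT of set 1.

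Of 5 tested Sprouty and Spred genes, inhibitors of receptor to RAS signalling, Spry1 fell by 0.46 ± 0.062 in WT of set 1 and fell by 0.46 ± 0.091 in WT of set 2. It was at 0.04 ± 0.064 in Y551A-Dim, -0.06 ± 0.067 in Y551A, -0.12 ± 0.074 in D647V-Tetra and -0.15 ± 0.073 in D647V, none called. Spry2 (-0.23 ± 0.072) and Spred1 (-0.06 ± 0.041) did not pass in WT of set 1, and Spred2, named after its value was seen, rose in D647V-Tetra (0.38 ± 0.094). Of 8 tested genes used as readouts of MAP kinase activity, a list that holds the members Dusp4 and Dusp6, 3 fell in Y551A and 4 in WT of set 1, beside 0.415% and 1.4% of all genes lower. In set 2, 3 fell in D647V-Tetra, 3 in D647V and 3 in WT, beside 7.89%, 0.137% and 0.376% of all genes lower, and none of the list rose in any line. These counts include members already given above. Besides Dusp4 and Dusp6, Phlda1 fell by 0.77 ± 0.074 and the receptor tyrosine kinase Epha2 fell by 0.32 ± 0.055 in WT of set 1. In Y551A, D647V and WT of set 2, Phlda1 was the only call besides Dusp4 and Dusp6. In D647V-Tetra the calls were Dusp4, Phlda1 and, named after its value was seen, Etv4 (-0.20 ± 0.064). Phlda1 was at -0.09 ± 0.072 in Y551A-Dim (edgeR adjusted p = 0.748), where none of the 8 was called.

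Across the 34 libraries, log2 CPM was set against the EtOH mean of its own line and set, so that differences between lines in EtOH do not enter. On that scale Dusp1 went most closely with Slc39a14 (Pearson r = 0.98), Tead4 (0.98), Suox (0.98) and B3galnt2 (0.97), out of 16056 genes. Dusp4 went with Tgif1 (0.94), Phlda1 (0.92), Thbs1 (0.91) and Gas1 (0.91), and Dusp10 with Plk2 (0.94), Irf1 (0.92), its fellow member Dusp14 (0.92) and Btg1 (0.92). Within the family, Dusp1 ran against Dusp14 (-0.94), Dusp10 (-0.92) and Dusp4 (-0.83), and Dusp7 was weakly tied to all others, with its strongest r at -0.37, to Dusp6. These values describe libraries that share lines, treatment and sequencing, and genes in 1 library are not independent. The shift with Dex enters every r on this scale, so a gene that rose runs against genes that fell. The negative r values thus restate the responses given above.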

How the data were processed

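Stranded total RNA libraries were read as 100 bp pairs, per the labels' protocols, which describe 2 batches with different kits without tying either to a library. The submitters' processing notes name bcl2fastq 2.17, cutadapt, STAR and mm10. The deposited files hold whole-number counts per gene that the authors made with featureCounts 2.0.3 on GENCODE vM21 genes, counting by strand, per the file headers. By the same headers the 2 reads of a pair were counted separately. A Drosophila spike-in of 5% of the cells was not used, since the tables list mouse genes, so levels are relative to all counted RNA.

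CPM and RPKM were computed here from the counts with TMM factors per library set. Low-count genes were removed with filterByExpr, and edgeR 4.0.16 (R 4.3.3) quasi-likelihood models with 1 mean per line, treatment and set were fitted to 16140 genes of set 1 and 17535 of set 2, and to 16540 genes of the WT libraries of both sets. The call threshold was a Benjamini-Hochberg adjusted p of 0.05 over all genes fitted, and errors are SE from the F statistic. The method was tested on simulated data. Ratios were tested by exact permutation (scipy 1.17.1). Alternatives were DESeq2 1.42.0, its size factors, no filter, a replicate block, fitting only the groups compared, and leaving out each library. Totals of 44998213 to 79776573 counts gave each tested member at least 113 counts per library. Replicates differed by more than the counting noise of independent reads (lowest chi-square per degree of freedom 2.95). Counting the 2 reads of a pair separately raises that noise, so the excess is smaller than this value makes it look.

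The members and the pathway lists were chosen with earlier results of these data known. All members were named in each Dex response and elsewhere where called, with, per list, the 3 genes of lowest adjusted p in WT of set 1 and, for Dusp1, Dusp4 and Dusp10, the 4 genes with the highest correlation of log2 CPM (prior count 2), leaving out predicted and clone-named genes. A gene that this rule selects among the MAP kinases is not reported here.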

Additional observations from a re-analysis of the deposited data

Results flagged for a closer look

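In 8 cases the Dex response of a member differed between lines by the test of the difference itself (edgeR's quasi-likelihood test, Benjamini-Hochberg adjusted over all genes). Each comparison tested 9 members, and the share of all genes called ran from 0.18% to 4.41%. The response of Y551A-Dim differed from that of WT by -0.86 log2 for Dusp1, 0.60 for Dusp4 and 0.36 for Dusp10, and from that of Y551A by -0.48 for Dusp1. The response of Y551A differed from that of WT by 0.35 for Dusp10, a call lost in 9 of 12 fits with 1 library left out. In set 2 the response of D647V-Tetra differed from that of WT by 0.51 for Dusp4 and from that of D647V by 0.76 for Dusp1. The response of D647V differed from that of WT by 0.47 for Dusp4. With 1 library left out, this D647V call was lost in 7 of 10 fits and the Dusp4 call of D647V-Tetra in 1 of 10. The lines also differed in EtOH for some of these genes, Dusp1 by 0.87 ± 0.070 and Dusp4 by 0.54 ± 0.058 in Y551A against WT, and Dusp4 by -0.64 ± 0.061 in D647V-Tetra and -0.49 ± 0.061 in D647V against WT (SE). The part of these starting levels in the differences of response was not tested.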

How the results depend on the processing

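Of the values of single members recomputed under another setting, 1014 kept their direction and their side of the threshold, 93 lost a call, 12 gained one and 6 turned round. The 6 that turned round were uncalled values with 1 library left out: Dusp4 in Y551A-Dim (up to 0.034, from a lowest value of -0.12), Dusp16 in Y551A-Dim (0.012, from a lowest of -0.079) and Dusp7 in D647V-Tetra (up to 0.052, from a lowest of -0.11). Of the counts of members called and ratio changes, 310 held and 41 moved. With 1 library left out, the count of members called ran from 0 to 1 for the Y551A-Dim response and from 3 to 4 for the WT response of set 2. For differences of response it ran from 0 to 1 for Y551A against WT, 1 to 2 for Y551A-Dim against Y551A, 0 to 1 for D647V against WT and 0 to 2 for D647V-Tetra against WT. For EtOH levels it ran from 3 to 5 for D647V-Tetra against WT and 1 to 2 for D647V-Tetra against D647V. DESeq2 called 1 member in Y551A-Dim. With no low-count filter, 2 members were called for the response differences of Y551A against WT, Y551A-Dim against Y551A and D647V against WT, and 2 for D647V against WT in EtOH. With only the groups compared in the fit, the counts were 3 for the WT response of set 2, 3 for the response difference of Y551A against WT, 3 for D647V-Tetra against WT in EtOH and 1 for D647V-Tetra against D647V in EtOH. The cause of these moves was not tested.

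Libraries with the same replicate number did not deviate together (correlations from -0.201 to 0.0816). The replicate block left 0 members called for the response difference of Y551A against WT and 1 for D647V-Tetra against D647V in EtOH. In edgeR it also left uncalled the responses of Dusp6 in WT of set 2 (adjusted p = 0.081) and D647V (adjusted p = 0.0754) and of Dusp5 in WT of both sets (adjusted p = 0.0865), and in EtOH Dusp10 (adjusted p = 0.0532) and Dusp16 (adjusted p = 0.08) in D647V-Tetra against WT. With the WT EtOH numbers of set 2 crossed in the block, chosen after seeing the correlation of -0.194 there, 0 were called for the response difference of D647V against WT.

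Counts over all genes moved by more than 1.5 times as follows. With no filter more genes were tested, 30707 against 16140 in set 1 and 32294 against 17535 in set 2. Shares thus moved less than counts, with 1.81% against 1.72% called for the WT response of set 2. The counts with no filter were 491 against 176 for the Y551A-Dim response, 583 against 302 for WT of set 2 and 380 against 165 for D647V. For response differences they were then 109 against 29 for Y551A and WT, 422 against 238 for Y551A-Dim and WT, 250 against 90 for Y551A-Dim and Y551A, 244 against 33 for D647V and WT, 2424 against 774 for D647V-Tetra and WT, 936 against 153 for D647V-Tetra and D647V, 156 against 3 for the WT sets, and for D647V-Tetra and D647V in EtOH 1956 against 795. In the same order of comparisons DESeq2 gave 294 for the Y551A-Dim response, 60 for Y551A and WT, 57 for D647V and WT, 1566 for D647V-Tetra and WT, 421 for D647V-Tetra and D647V, 24 for the WT sets and 1294 in EtOH. The replicate block gave 431 (503 when crossed) for D647V-Tetra and WT, 82 for D647V-Tetra and D647V, 502 for these in EtOH and 3.33% of genes against 5.1% for WT of both sets. Fitting only the groups compared gave 848 against 549 for WT of set 1, 45 for Y551A-Dim, 69 for Y551A and WT, 464 for D647V-Tetra and WT and, in EtOH, 741 against 1290 for D647V and WT, 1894 against 3277 for D647V-Tetra and WT and 263 for D647V-Tetra and D647V. DESeq2 size factors moved the median of all genes by at most 0.0168 log2, and fitting only the groups compared by at most 0.0194. Depth left Dusp2 untested, Dusp5, at 113 to 436 counts, had the largest SE of the tested members in all 6 responses, and the pair of WT libraries per treatment in set 2 limits every comparison with that WT.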
